A study of Homo sapiens with 10 samples.

Results

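The genes described here are the inducible parts of the machinery that makes peptides for HLA class I: the immunoproteasome subunits PSMB8, PSMB9 and PSMB10, the peptide transporter subunits TAP1 and TAP2, the loading factor TAPBP and the trimming enzyme ERAP1. They were taken by name from column 4 of 7 lists of m6A peaks, and all 7 genes were found, among 5000 gene names. They had 63 of the 16319 peaks of 5 libraries. m6A is a methyl mark on adenosines in RNA. MeRIP-seq maps it by pulling down fragmented RNA with an antibody and sequencing it next to an untouched input, and a peak is a stretch where the pulled-down RNA was called enriched. V16A, the cell line used, comes from castration-resistant prostate cancer. Hypoxia had 2 pulled-down libraries, the library named for EU and 40 min was single, and normoxia had 2. EU is read here as ethynyl uridine, a nucleoside that enters newly made RNA. The labels give neither the oxygen level nor the length of hypoxia, no oxygen condition for the EU library, and no word on whether replicates came from separate cultures. Besides the 5 library lists there was 1 list for each condition. How those were made from the libraries was not given in the sources used here.

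Proteasomes cut proteins into peptides. In cells exposed to interferon gamma, and constitutively in many leukocytes, their catalytic subunits are replaced by PSMB8, PSMB9 and PSMB10, which changes the ends of the peptides they release. TAP1 and TAP2 form an ATP-driven pump that carries those peptides into the endoplasmic reticulum, TAPBP (tapasin) holds the pump beside empty HLA class I molecules, and ERAP1 trims the peptides to fit. PSMB8, PSMB9, TAP1 and TAP2 lie side by side within the HLA region on chromosome 6, where their RefSeq spans lie within 38021 bases from 32821831 to 32859851 (hg38). TAPBP lies farther along the same chromosome, at 33299694 to 33314078. PSMB10 is on chromosome 16, at 67934506 to 67936850, and ERAP1 on chromosome 5, at 96760813 to 96935854.

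The study compares hypoxia with normoxia, and peaks in these genes were called in the hypoxia and EU libraries and not in the normoxia libraries. Hypoxia replicate 1 had 11 peaks in 4 of the 7 genes and hypoxia replicate 2 had 32 peaks in 7 of 7. The EU library had 20 peaks in 4 genes, and normoxia replicates 1 and 2 had 0 peaks. The hypoxia condition list had 21 peaks in 7 genes, and the normoxia condition list had 0. The groups thus did not overlap in how many of the 7 genes had a peak. That number averaged 5.5 ± 2.12 over the 2 hypoxia libraries (SD) and 0 over the 2 normoxia libraries. This separation was not particular to the 7 genes. Hypoxia replicates 1 and 2 listed 1258 and 2151 genes of any kind, and normoxia replicates 1 and 2 listed 139 and 897. In the condition lists, 78.8% of the 2637 genes of the hypoxia list were missing from the normoxia list.

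The lists differed much in length, which bears on these counts. They held 2879 and 6621 peaks for hypoxia, 5044 for EU, and 212 and 1563 for normoxia. Per 1000 listed peaks, the 7 genes had 3.82 and 4.83 in the hypoxia libraries, 3.97 in the EU library and 0 in each normoxia library. Of genes with a peak in any of the 5 libraries, 29.1% and 49.7% had one in the hypoxia libraries, 55.2% in EU, and 3.21% and 20.7% in the normoxia libraries. Sequencing depth is unknown, since reads and inputs were not analysed here. A gene without a listed peak is not thereby unmethylated or silent, and expression was not measured.

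PSMB8, TAP1, TAP2 and TAPBP had a peak in both hypoxia libraries and in neither normoxia library, a pattern called hypoxia-only below. That is 4 of 7 genes, where 15.3% of all 3226 genes with a peak in any of these 4 libraries were hypoxia-only and 0.155% had the reverse pattern. The pattern was not limited to these genes, but related lists differed, counting genes with a peak in any of these 4 libraries. Hypoxia-only were 4 of 8 genes of HLA class II and its loading, 6 of 12 T and NK cell markers and 2 of 5 interferon signalling genes. These are 50%, 50% and 40%, beside 57.1% here. Shares were lower for proteasome activators and inhibitor (1 of 3), HLA class I and B2M (1 of 6, 16.7%) and 19S proteasome subunits, those of the regulatory cap (1 of 6, 16.7%). Other core proteasome subunits and assembly factors had 0 of 3, and other loading and trimming genes 0 of 2. The share of the 3226 genes with no peak in either normoxia library was 69.2%. PSMB8, TAP1, TAP2 and TAPBP were also listed in EU, as were 54.4% of 682 genes with a peak in both hypoxia libraries. All 4 genes of hypoxia replicate 1 recurred in replicate 2, where 54.2% of its 1258 genes did. PSMB9, PSMB10 and ERAP1 had peaks in hypoxia replicate 2 and in none of the other 4 libraries. Of 1469 genes with a peak in hypoxia replicate 2 and not in replicate 1, 33.2% had an EU peak. An exact two-sided permutation test of the number of peaks over 2 hypoxia and 2 normoxia libraries has 0.333 as its smallest p. The exact test gave p = 0.333 for PSMB8, TAP1, TAP2 and TAPBP and p = 1 for PSMB9, PSMB10 and ERAP1. Of all 3226 genes 0% had an unadjusted p under 0.05 by that test and 17.2% reached its smallest p. The 7 genes were chosen with earlier results of these data known, so no test was made over them as a list.

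**Figure D1:**
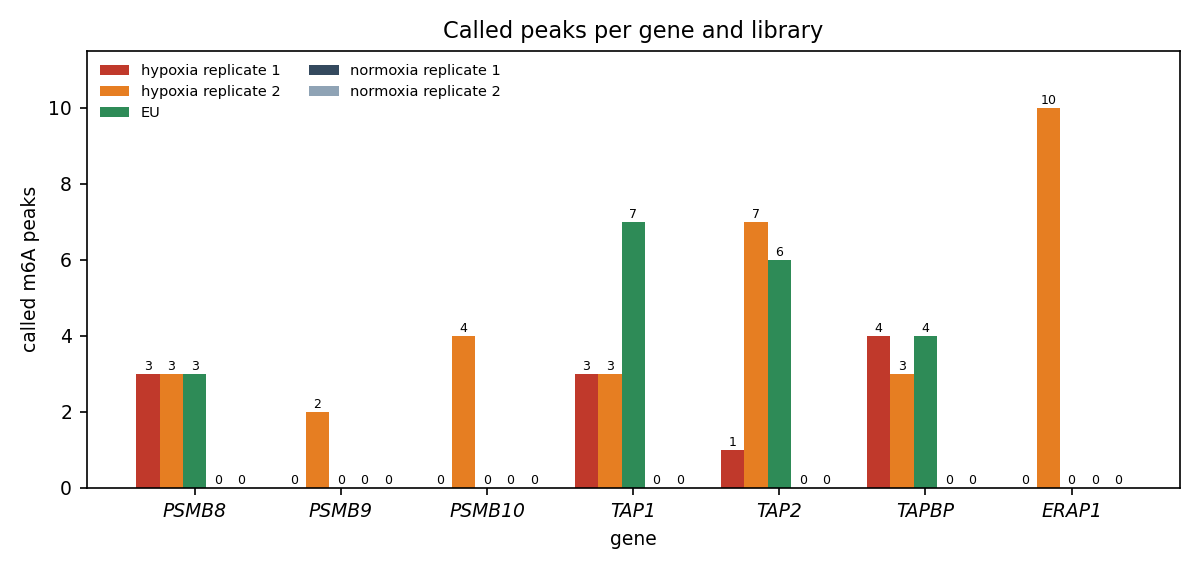
Called m6A peaks (y axis, number) in each of the 7 genes (x axis), with 1 bar per library and the number above it. Bars appear for both hypoxia libraries and EU in PSMB8, TAP1, TAP2 and TAPBP, for hypoxia replicate 2 alone in PSMB9, PSMB10 and ERAP1, and for neither normoxia library.

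PSMB8, the inducible chymotrypsin-like subunit, had the largest share of its covered bases in common between libraries among the 7 genes. It had 3 peaks in hypoxia replicate 1, 3 in hypoxia replicate 2, 3 in EU and 0 in normoxia replicates 1 and 2. Each peak ran over at least 2 blocks, the stretches of a peak that remain when the gap between them is left out, as in a spliced transcript. Its 3 peaks covered 835, 1031 and 884 bases in hypoxia replicates 1 and 2 and EU, and 737 bases lay in peaks of all 3 of these libraries, out of 1129 covered in any of them. The peaks therefore lay on the same parts of the transcript. The shared stretches ran from 32840962 to 32841047 and 32841531 to 32841787 near the 3' end, over 32842228 to 32842263 and 32842672 to 32842881, and over 32843076 to 32843089 and 32843850 to 32843983 towards the 5' end. A block of 36 bases, 32842228 to 32842263, had the same edges in all 3. The gaps of 483, 408 and 760 bases between blocks also had the same edges in all 3 libraries. Gap edges may come from the gene annotation, so they are not separate evidence from the overlap of the peaks. A gap of 231 bases was listed in hypoxia replicate 1 alone.

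PSMB9 and PSMB10, the subunits that join PSMB8 in the immunoproteasome, were called in a single library. PSMB9 had 2 peaks in hypoxia replicate 2, and 0 in hypoxia replicate 1, EU and normoxia replicates 1 and 2. The first of them had 4 blocks over 11894 bases, from 32844235 to 32856128. Only its last 2 blocks touch the RefSeq span of PSMB9, which starts at 32854192. The other 2, 32844235 to 32844274 and 32844836 to 32844870, lie far upstream, the first of them at -9957 bases from that start. Both lie inside the RefSeq span of PSMB8-AS1, a long non-coding RNA at 32844086 to 32846500 whose peaks are on the same strand as those of PSMB9, and the first also lies inside PSMB8, on the opposite strand. The use of strand was not given in the sources used here, and whether reads of overlapping genes were separated is therefore unknown. PSMB10 had 4 peaks in hypoxia replicate 2, and 0 in hypoxia replicate 1, EU and normoxia replicates 1 and 2. These 4 peaks had 7 blocks and 444 bases, spread from 628 bases after the RefSeq start to 142 bases before the end of this gene of 2345 bases, and all 4 carried 1 deposited p, 9.1e-05.

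TAP1, the transporter subunit encoded between PSMB8 and PSMB9, had 3 peaks in hypoxia replicate 1, 3 in hypoxia replicate 2, 7 in EU and 0 in normoxia replicates 1 and 2. Of the 2389 genes listed in EU, 2.51% had at least as many peaks. The hypoxia peaks were fewer and longer: hypoxia replicate 2 joined 5 blocks of 1294 bases at the 5' end into a peak of 3363 bases, where EU listed 3 peaks. Covered bases came to 1246 and 1893 in the hypoxia libraries and 1448 in EU, and 748 bases were common to all 3. The common stretches lay at both ends of the gene. At the 3' side they were 32845458 to 32845706 and 32847188 to 32847287, and at the 5' side they included 32852388 to 32852502, a whole block of 115 bases, and 32853232 to 32853381. EU also had peaks at 32847586 to 32848127 and at 32849095 to 32849195, where neither hypoxia library had one. The hypoxia condition list had a peak over the first of these sites, at 32847635 to 32848177, with the same gap of 243 bases.

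TAP1 has a partner on the other strand. PSMB8-AS1 had 1, 2 and 3 peaks in hypoxia replicates 1 and 2 and EU. Its peaks shared 209, 412 and 335 bases with the TAP1 peaks of the same library at the 3' end of TAP1. Whether reads of the 2 genes were separated in that stretch is unknown. The TAP1 peaks at its 5' end have no such partner in the lists.

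TAP2, the other transporter subunit, had 1 peak in hypoxia replicate 1, 7 in hypoxia replicate 2, 6 in EU and 0 in normoxia replicates 1 and 2. Its total of 14 was the highest of the 7 genes, and of the 4 genes listed in both hypoxia libraries it was the least even. The single peak of hypoxia replicate 1, 32827170 to 32827320, had the same edges in hypoxia replicate 2 and shared 0 bases with EU. Hypoxia replicate 2 and EU shared 403 bases of TAP2, in 3 peaks each, and 0 bases were common to all 3 libraries. Part of TAP2 is also covered by peaks of the same strand listed under another name, XXbac-BPG246D15.9, an ID that the reference tables used here do not annotate. Hypoxia replicate 1 had 2 such peaks inside the TAP2 span, from 32829489 to 32830079 and from 32830679 to 32832665, which shared 198 and 224 bases with TAP2 peaks of hypoxia replicate 2. The count of TAP2 peaks in hypoxia replicate 1 thus depends on the name a peak was given. The normoxia condition list had 1 peak under that name inside the TAP2 span, 32829981 to 32830079, of which 99 bases lie in TAP2 peaks of hypoxia replicate 2. Neither normoxia library had a peak of any name inside the span of any of the 7 genes.

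**Figure D2:**
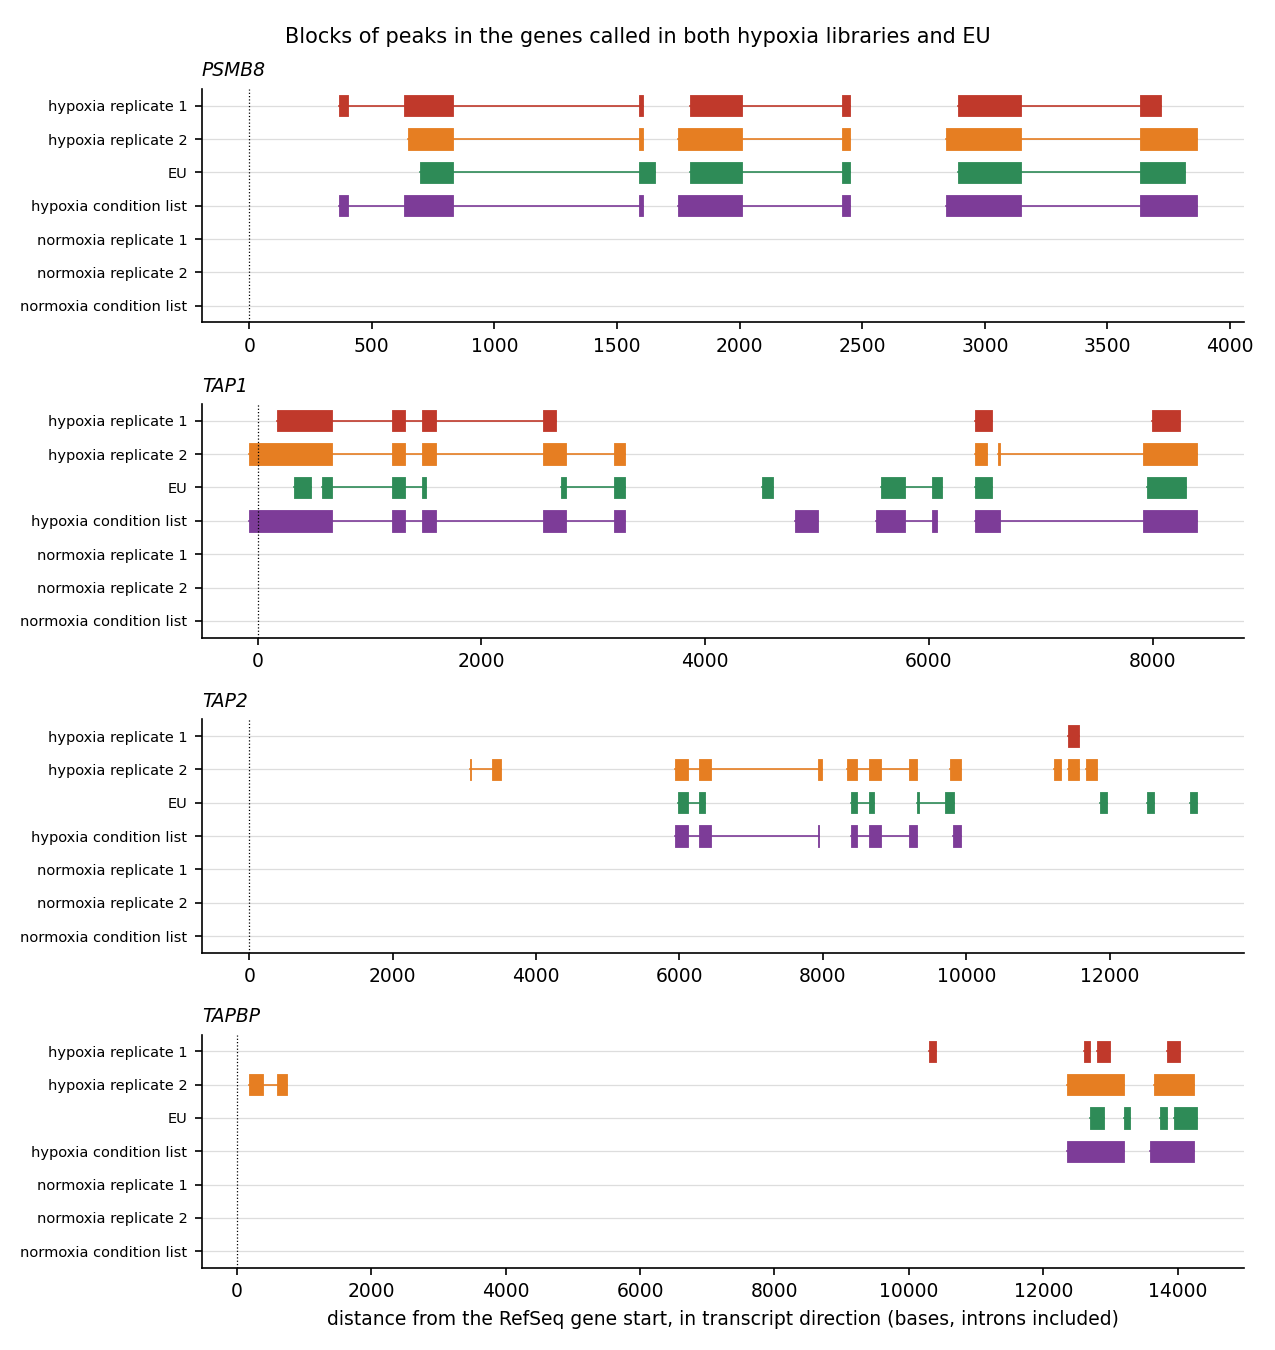
Blocks of each peak (boxes, joined by a line within a peak) in PSMB8, TAP1, TAP2 and TAPBP, by distance from the RefSeq gene start in bases (x axis) and by list (y axis). PSMB8 has matching blocks in both hypoxia libraries and EU, TAP1 and TAPBP match in part, and the single TAP2 peak of hypoxia replicate 1 has no EU peak under it.

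TAPBP had 4 peaks in hypoxia replicate 1, 3 in hypoxia replicate 2, 4 in EU and 0 in normoxia replicates 1 and 2. They gathered in the 3' part of the gene of 14385 bases. The EU peaks lay between 12699 bases after the RefSeq start and 99 bases before the end, and 2 of the 3 peaks of hypoxia replicate 2 lay in the same part. In hypoxia replicate 2 those peaks were wide and unbroken, with 844 and 595 bases, while the peaks of hypoxia replicate 1 measured 199, 199, 100 and 100 bases. Stretches of 100 bases at 33300041 to 33300140 and at 33301181 to 33301280 were common to both hypoxia libraries and EU, and the total common to all 3 was 202 bases of 2036 covered. The third peak of hypoxia replicate 2 lay at the other end, 33313329 to 33313892, 186 bases after the start, and the other lists had none there.

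ERAP1 had 10 peaks in hypoxia replicate 2, and 0 in hypoxia replicate 1, EU and normoxia replicates 1 and 2. This was the highest number in any of the 7 genes in 1 library. The 10 peaks had 17 blocks and 1608 bases, from 96775013 to 96803854, and all carried 1 deposited p, 1.4e-06. The hypoxia condition list had 3 ERAP1 peaks, with a deposited p of 0.01, against 1.4e-06 in the replicate. In that list they were among the last, at 99.6% of its length.

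**Figure D3:**
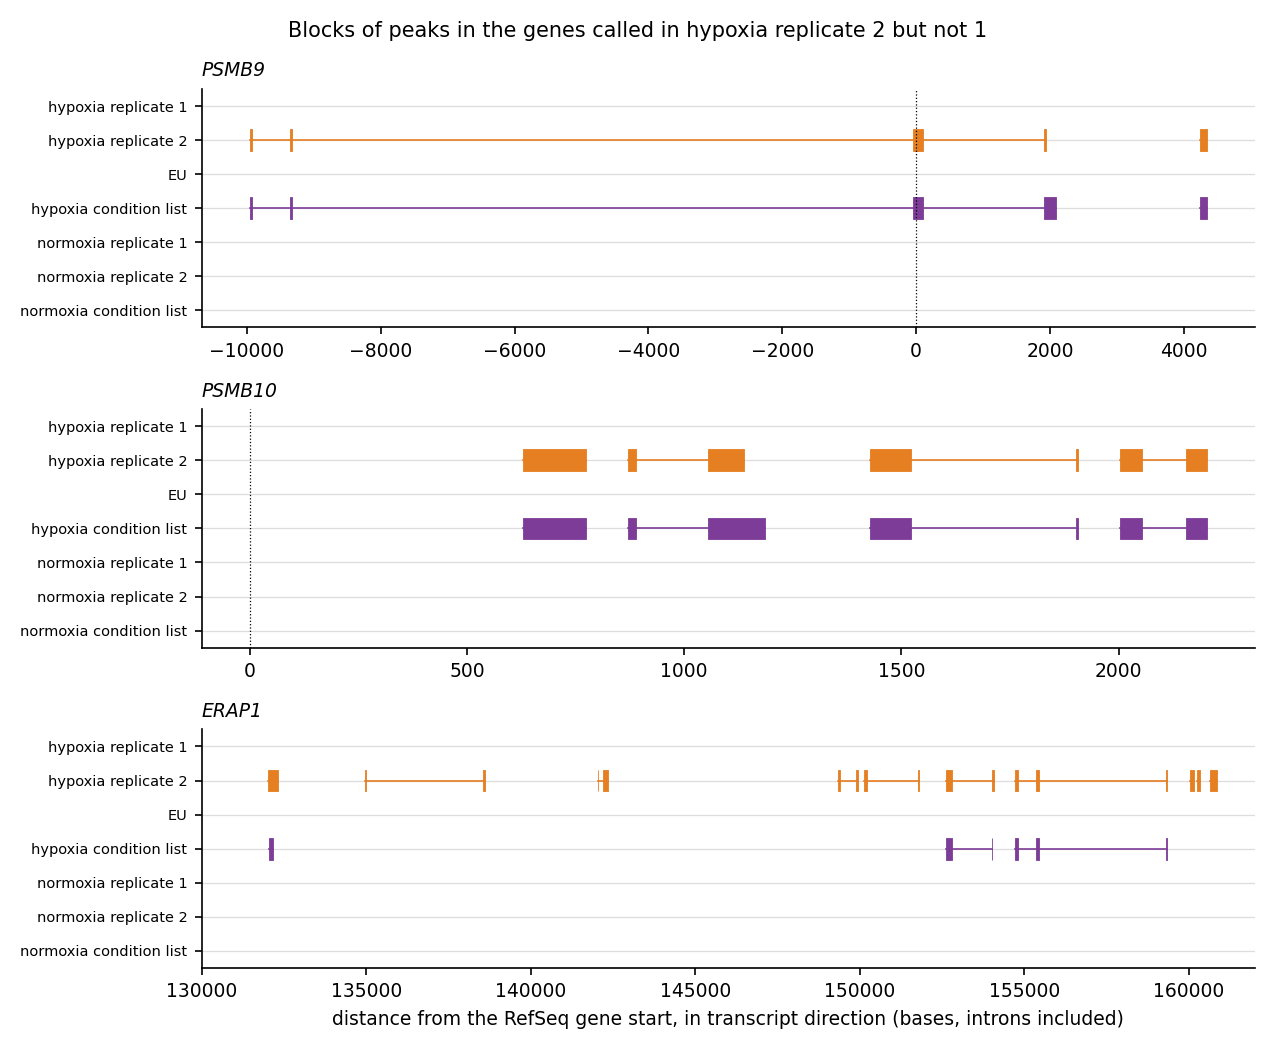
Blocks of each peak in PSMB9, PSMB10 and ERAP1, by distance from the RefSeq gene start in bases (x axis; the ERAP1 axis does not begin at 0) and by list (y axis). Boxes appear for hypoxia replicate 2 and the hypoxia condition list alone, and the first PSMB9 peak begins at -9957 bases from the RefSeq start.

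Peaks of 3 genes reached into the window that runs from 250 bases before to 50 bases after a RefSeq start. These windows are shown because they are the part of the called peaks whose sequence was at hand, from RefSeq on GRCh38.p14. Capitals mark bases inside a peak of hypoxia replicate 2, and each line runs 5′ to 3′ on the strand of the gene. The TAP1 window is chr6:32853655-32853954 on the minus strand, the PSMB9 window chr6:32853942-32854241 on the plus strand, and the PSMB8 window, at the inner of 2 starts listed for this gene, chr6:32843998-32844297 on the minus strand.
TAP1: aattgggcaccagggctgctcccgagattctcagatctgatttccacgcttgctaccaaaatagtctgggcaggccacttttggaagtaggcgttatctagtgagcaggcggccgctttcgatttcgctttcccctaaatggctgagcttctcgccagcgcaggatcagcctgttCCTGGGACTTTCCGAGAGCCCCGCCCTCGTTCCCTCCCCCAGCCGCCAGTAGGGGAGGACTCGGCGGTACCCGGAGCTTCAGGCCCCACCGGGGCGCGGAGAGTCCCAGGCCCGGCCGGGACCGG
PSMB9: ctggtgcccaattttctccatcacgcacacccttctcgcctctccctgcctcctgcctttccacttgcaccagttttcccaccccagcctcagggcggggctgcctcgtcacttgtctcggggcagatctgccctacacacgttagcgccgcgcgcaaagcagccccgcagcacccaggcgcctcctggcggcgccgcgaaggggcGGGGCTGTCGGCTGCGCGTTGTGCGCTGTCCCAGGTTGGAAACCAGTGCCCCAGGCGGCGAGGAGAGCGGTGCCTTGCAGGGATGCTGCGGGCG
PSMB8: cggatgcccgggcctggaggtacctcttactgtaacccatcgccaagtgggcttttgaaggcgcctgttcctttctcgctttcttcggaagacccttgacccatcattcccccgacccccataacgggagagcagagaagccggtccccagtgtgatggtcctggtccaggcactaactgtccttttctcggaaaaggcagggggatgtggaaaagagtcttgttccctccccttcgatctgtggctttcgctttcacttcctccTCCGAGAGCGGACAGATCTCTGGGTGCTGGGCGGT
TAP1 and PSMB9 point away from each other, with 487 bases between their RefSeq starts, and the 2 windows share 13 bases. In hypoxia replicate 2 a TAP1 peak covered 125 bases of its window, of which 75 lie before the RefSeq start, and a PSMB9 peak covered 94, of which 44 lie before it. The annotation behind the lists may begin these transcripts elsewhere, which was not tested. In the PSMB8 window 35 bases were covered in hypoxia replicate 2 and 69 in hypoxia replicate 1. In EU and the normoxia libraries 0 bases of the 3 windows were covered.

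Motifs were searched by letters in the 10 windows that RefSeq gives for the 7 genes. GGAC, the core of the common m6A consensus, and GGACT, which contains it, were searched on the transcript strand. The capitals of TAP1 hold GGAC 3 times, in 2 of which T follows, those of PSMB8 hold GGAC 1 time and those of PSMB9 0 times. GGAC was present in 66.3% and GGACT in 25.3% of the 35116 windows of all genes. The core of the interferon-stimulated response element, GAAA, any 2 bases and GAAA, was searched on both strands and stood in 6 of the 10 windows, in 6 genes (not PSMB9), against 3.57% of all windows. In TAP1 and in TAPBP it stood in 2 overlapping copies. The TAP1 copies, at 117 to 126 and 123 to 132 of its window, lie between the RefSeq starts of TAP1 and PSMB9. They fall outside the PSMB9 window, which ends 250 bases before that start. A window without a match is thus not a gene without one farther upstream. TTCNNNGAA, the core of the gamma-activated site, stood in 2 of the 10 windows, in PSMB8 and TAP1, against 7.66% of all windows. A match of letters is a description of these windows and shows no binding.

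The next question was whether peaks recurred, at the level of bases, between the hypoxia replicates and with EU. A peak was taken as overlapped when at least 1 block base lay in a peak of the same gene and strand. Of the 11 peaks of hypoxia replicate 1 in these genes, 10 (90.9%, exact binomial 95% interval 58.7 to 99.8) were overlapped by hypoxia replicate 2, against 47% of all its peaks. When only the 50% of peaks with the lowest p were kept in each list, 3 of 10 (30%) were overlapped, against 26.8% of all peaks, and all 3 were in PSMB8. The exception in the full lists was the TAPBP peak at 33303676 to 33303775. In the other direction 9 of 32 peaks of hypoxia replicate 2 (28.1%, 13.8 to 46.8) were overlapped by hypoxia replicate 1, against 18.7% of all its peaks. The difference between directions follows PSMB9, PSMB10 and ERAP1, which replicate 1 did not list, and TAP2, where 1 of 7 peaks was overlapped. Intervals cover counting error only, and peaks of 1 gene are not independent.

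EU peaks overlapped those of hypoxia replicate 1 in 9 of 11 cases (81.8%, exact binomial 95% interval 48.2 to 97.7), against 28% of all its peaks. For hypoxia replicate 2 the count was 11 of 32 (34.4%, 18.6 to 53.2), against 23.2%. Of the 20 EU peaks in these genes, 10 (50%, 27.2 to 72.8) were overlapped by hypoxia replicate 1 and 15 (75.0%, 50.9 to 91.3) by hypoxia replicate 2, against 15.2% and 29.4% of all EU peaks. Part of this is the presence of the gene in both lists at all. Within genes listed in both, the shares were 90.9% for these genes and 73.0% for all peaks of hypoxia replicate 1 in replicate 2, and 81.8% and 56.0% in EU. For hypoxia replicate 2 they were 56.2% and 50.7% in replicate 1 and 68.8% and 53.7% in EU. For EU peaks they were 75% and 68.2% in hypoxia replicate 2, and 50% and 54.3% in hypoxia replicate 1, where these genes were below all peaks. No test was made of these differences. Each of the 3 PSMB8 and 3 TAP1 peaks in each hypoxia library was overlapped by EU, as were 3 of 4 and 2 of 3 for TAPBP and 0 of 1 and 3 of 7 for TAP2.

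The hypoxia condition list overlapped 9 of the 11 peaks of hypoxia replicate 1 and 20 of the 32 of hypoxia replicate 2 in these genes, or 81.8% and 62.5%, against 60.4% and 71.4% of all peaks. Of its own 21 peaks, 7 were overlapped by hypoxia replicate 1, 19 by hypoxia replicate 2 and 11 by EU, or 33.3%, 90.5% and 52.4%, against 20.6%, 60.6% and 22.9% of all its peaks. It overlapped 16 of the 20 EU peaks (80%), against 33.9% of all EU peaks. For hypoxia replicate 2, then, the share in these genes was below that of all peaks, and 7 of the 12 peaks without overlap were in ERAP1 and 4 in TAP2. How the list depends on the replicates is unknown, so these shares are no separate evidence.

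**Figure D4:**
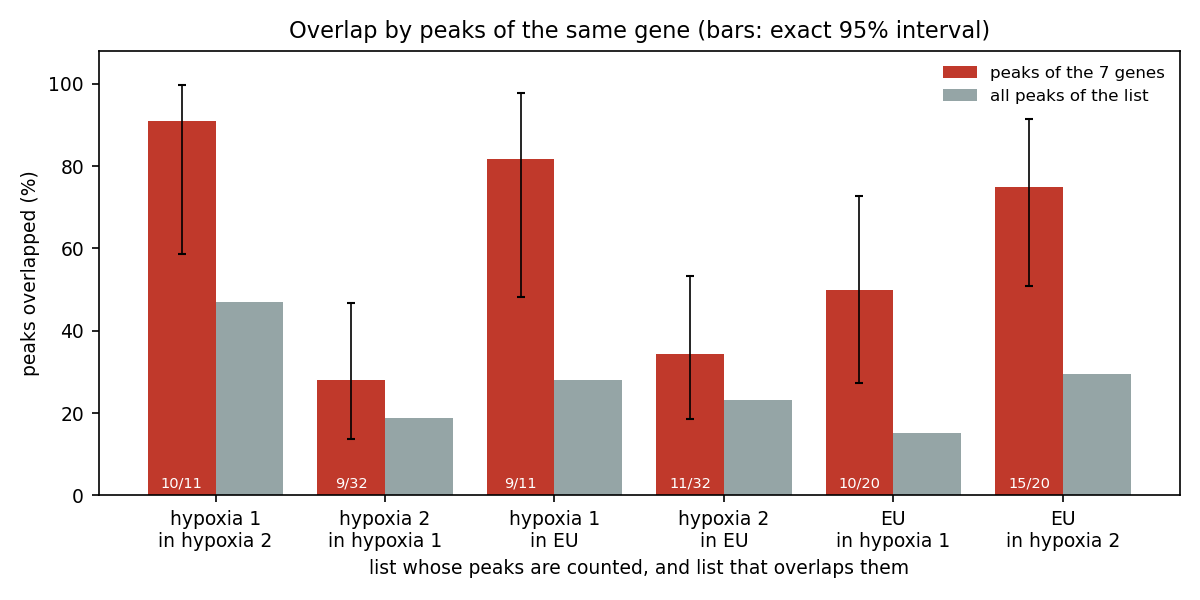
Share of peaks (y axis, %) overlapped by a peak of the same gene in a second list (x axis), for the 7 genes (left bars, with exact binomial 95% intervals and counts) and for all peaks of the list (right bars). Against all peaks of the list the share was higher for the 7 genes in each of the 6 pairs, most widely for hypoxia replicate 1 in EU (81.8% against 28%), but within genes listed in both it was lower for EU in hypoxia replicate 1 (50% against 54.3%).

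Gaps between the blocks of a peak, read here as introns, were compared by their edges. If the edges were set by a gene annotation, peaks across the same intron would share them by construction. Shared edges are therefore not separate evidence from the overlap of peaks. The 7 genes had 30 different gaps in their peaks over the lists, 5 of them in 3 libraries, 4 in 2 and 21 in 1. The 5 were 3 of PSMB8 and 2 of TAP1. Of 7 gaps in hypoxia replicate 1, 6 had the same edges in hypoxia replicate 2, against 48.9% of 1443 gaps of all genes. Of 10 gaps in EU, 8 had the same edges in hypoxia replicate 2, against 36.8% of 1355. In the other direction 6 of 27 gaps of hypoxia replicate 2 were found in replicate 1 (22.2%) and 8 in EU (29.6%), against 18.3% and 12.9% of 3856. Between hypoxia replicate 1 and EU 5 gaps were shared, of 7 and of 10, against 18.6% and 19.9% of all. Peaks with more than 1 block made up 4 of 11, 19 of 32 and 9 of 20 peaks in hypoxia replicates 1 and 2 and EU, or 36.4%, 59.4% and 45%, beside 35.9%, 36.7% and 19.8% of all peaks.

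The deposited p of each peak, the authors' own value, placed these peaks differently in each list. Lists run from the smallest p down, and the peaks of these genes stood at a median of 30.7% of the length of hypoxia replicate 1, 65.9% of hypoxia replicate 2 and 19.9% of EU. The best peak was in TAP1 in EU, with a p of 1.8e-07, at 4.82% of the list. TAP1 had a best p of 2.5e-06 in hypoxia replicate 1 and 0.0002 in hypoxia replicate 2, at 18.3% and 72.2% of their lists. PSMB8 had a best p of 1.4e-06, 1.9e-06 and 6.5e-07 in hypoxia replicates 1 and 2 and EU. TAP1 thus spanned a far wider range of p than PSMB8. TAPBP had a best p of 1.8e-06, 0.00083 and 0.0011 in the same libraries. At least 2 peaks carried the same p in 68.1% of the genes with more than 1 peak in hypoxia replicate 2, so peaks of a gene are not separate evidence.

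The counts depended on how deep into the lists a peak was accepted. When only the 50% of peaks with the lowest p were kept in every list, PSMB8 alone was hypoxia-only, while 9.1% of 1901 genes were. Shortening the longer lists to the 1563 peaks of normoxia replicate 2, which was chosen after seeing the data, also left PSMB8 alone, where 5.43% of 1953 genes were hypoxia-only. Then 3 genes in hypoxia replicate 1 (PSMB8, TAP1 and TAPBP), 2 in hypoxia replicate 2 (ERAP1 and PSMB8) and 3 in EU (PSMB8, TAP1 and TAP2) had a peak, against 0 in each normoxia library. With every library shortened to 212 peaks, the length of normoxia replicate 1, none of the 7 genes had a peak in any library, and 3.13% of 447 genes were hypoxia-only. Without hypoxia replicate 1 all 7 genes were hypoxia-only, as were 63.7% of 2744 genes, and without normoxia replicate 1, the shortest list, the count was 4, with 16.8% of 3196 genes.

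The constitutive counterparts of the immunoproteasome gave no peak. PSMB5, PSMB6 and PSMB7, the catalytic subunits that PSMB8, PSMB9 and PSMB10 replace, had 0 peaks in any of the 7 lists. Of 16 other core subunits and assembly factors, 0 had a peak in hypoxia replicate 1, 2 in hypoxia replicate 2, 1 in EU, 1 in normoxia replicate 1 and 0 in normoxia replicate 2. Of 21 subunits of the regulatory cap, 2, 5, 0, 0 and 0 had one in the same order, and PSMC4 alone was hypoxia-only. Of 5 genes in all for proteasome activators and an inhibitor, PSME2 alone was hypoxia-only. This subunit of the interferon-inducible activator had 2 and 6 peaks in the hypoxia libraries and 2 in EU. PSME1 of the same list had 0 and 2 peaks in the hypoxia libraries and 0 in EU.

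Other parts of antigen presentation gave mixed counts. Of 7 genes of HLA class I and B2M, 4 and 6 had a hypoxia peak in replicates 1 and 2, 7 in EU and 3 and 1 in the normoxia libraries, so they had normoxia peaks where the loading genes had 0. HLA-C and B2M had 3 peaks each in normoxia replicate 1, a list of 212 peaks. HLA genes have near-identical copies, and reads may have been split among them. Of 11 other loading and trimming genes, 0 and 2 had a hypoxia peak in replicates 1 and 2, 1 in EU and 0 and 1 in the normoxia libraries. The gene with the normoxia peak was CALR, a chaperone of class I loading. Of 13 genes of HLA class II and its loading, 5 and 8 had a hypoxia peak in replicates 1 and 2, 1 in EU and 1 and 0 in the normoxia libraries, led by HLA-DPA1, HLA-DRB1, HLA-DRA and CD74, the invariant chain. Of 14 genes of interferon signalling and class I transactivation, 3 and 5 had a hypoxia peak in replicates 1 and 2, 2 in EU and 1 and 0 in the normoxia libraries. IRF1, a transcription factor of the interferon response, had 1 and 5 peaks in the hypoxia libraries and 0 in EU and normoxia.

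Some T and NK cell markers were listed in the hypoxia and EU libraries, as these genes were, and some also in normoxia replicate 1, where these genes were not. Of 16 T and NK cell markers, 10 and 12 had a hypoxia peak in replicates 1 and 2, 11 in EU and 4 and 0 in the normoxia libraries, and their summed peaks were 22 and 28 in the hypoxia libraries, 24 in EU and 6 and 0 in the normoxia libraries. They included CD3E, CD247 and TRAC, parts of the T cell receptor. CD4 and KLRD1 had 0 peaks in any list. The part of such cells in the peaks of the immunoproteasome and TAP genes was not tested. Normoxia replicate 1 had peaks in CD2, TRAC, GZMB and NKG7 and none in the 7 genes. Of 12 prostate epithelial markers, 2 and 4 had a hypoxia peak in replicates 1 and 2, 8 in EU and 1 and 5 in the normoxia libraries. FOXA1 had 2 and 4 peaks in the hypoxia libraries, 2 in EU and 2 and 2 in the normoxia libraries, and KRT8 and KRT18 had 0 in any list. B cell markers had 0 of 6 in each library, macrophage markers 0 of 9, and fibroblast and endothelial markers 1 of 9, PECAM1, in hypoxia replicate 2.

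**Figure D5:**
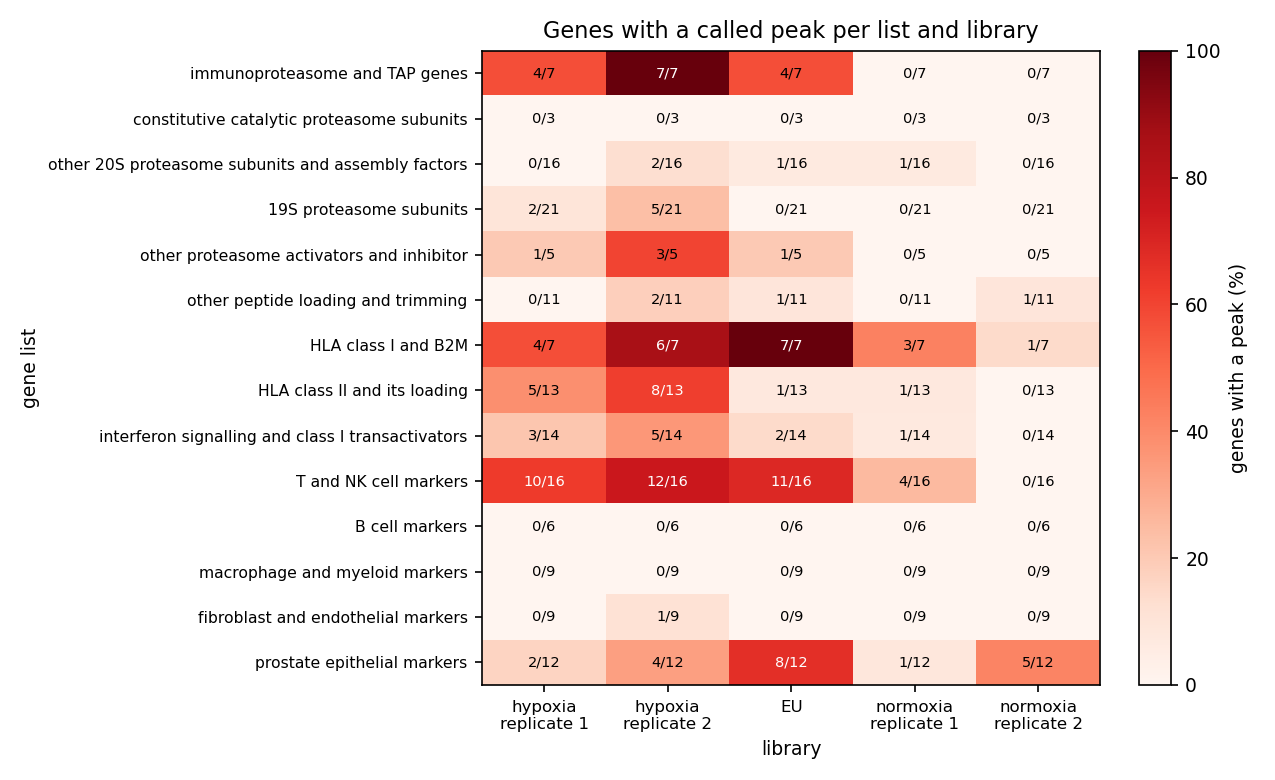
Genes with a called peak (number over list size, and shade as % of the list) for each gene list (y axis) and library (x axis). The immunoproteasome and TAP genes have 4, 7 and 4 of 7 in hypoxia and EU and 0 of 7 in normoxia, T and NK cell markers 10, 12 and 11 of 16 against 4 and 0, and the constitutive catalytic subunits 0 of 3 in each.

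The genes most like TAP2, which had the most peaks, in their number of peaks over the 5 libraries were CDC25B, FURIN, TNIP1, FEM1C and CD247. Likeness was the sum over libraries of absolute differences in log2(peaks + 1), and it was 0.49 for CDC25B, 0.68 for FURIN, 0.90 for TNIP1 and FEM1C and 1.00 for CD247. CDC25B had 1 and 7 peaks in the hypoxia libraries, 4 in EU and 0 in both normoxia libraries. CD247 had 1 and 6 in hypoxia, 3 in EU and 0 in normoxia.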

How the data were processed

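MeRIP-seq peak lists of 5 pulled-down libraries of V16A cells and 2 condition lists were used, and the 5 inputs were not analysed here. The submitters' processing notes name STAR and hg38. Which caller and threshold were used, how inputs entered, how condition lists were pooled and which annotation named the genes is information not given in the sources used here. Lists have 12 BED columns and no header. Column 5 was taken as the deposited p-value, a reading that rests on its values, 0 to 0.013 in ascending order. Depth is unknown. Coordinates count from 1. Peaks were matched by gene name, strand and block, with a minimum overlap of 1 base, using Python 3.11.15, pandas 2.3.3 and SciPy 1.17.1. The overlap code was tested on the list of hypoxia replicate 2 with a random part of its peaks moved away. The permutation code was tested on counts set by hand. Groups follow the sample titles. RefSeq gene spans and start windows (GRCh38.p14) matched 7 of 7 genes. No genome sequence was at hand, so motifs inside peaks were searched in start windows only.

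The 7 genes, lists and tests were chosen with earlier results of these data known. All 7 genes are named, with up to 4 genes of each wider list that had a peak in both hypoxia libraries, ranked by the smallest deposited p. Other genes of those lists (PSMB5, PSMB6, PSMB7, PSME1, CALR, CD2, CD3E, CD4, GZMB, KLRD1, KRT8, KRT18 and PECAM1) and the overlapping PSMB8-AS1 and XXbac-BPG246D15.9 were named after their values were seen. A p-value here measures the spread between libraries, which may be technical. Alternatives changed the p kept, peak length, list length, replicates, condition lists and overlap.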

Additional observations from a re-analysis of the deposited data

How the results depend on the processing

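The mean excess of genes with a peak in hypoxia over normoxia, 5.5, was 2.5 when only the 50% of peaks with the lowest p were kept, 2.5 with libraries shortened to normoxia replicate 2 (chosen after seeing the data) and 0 with each library shortened to the shortest list, and 4 to 7 without 1 replicate. In the same 3 settings the hypoxia-only count of 4 was 1, 1 and 0, and it was 7 by the condition lists and 4 to 7 without 1 replicate (7 without hypoxia replicate 1). Peaks of the 7 genes per 1000 listed peaks, 4.33 in hypoxia over normoxia, were 5.44 with the lowest p, 6.07 when peaks under the median length were dropped, 0 with the shortest list and 2.74 by the condition lists, and 3.82 to 4.83 without 1 replicate. Recurrence of hypoxia replicate 1 peaks in replicate 2, 90.9%, was 30% with the lowest p and 100% with longer peaks, beside 26.8% and 53.9% of all peaks. The mean share overlapped by EU, 58.1%, was 34.4% to 81.8% without 1 hypoxia replicate. Normoxia had 0 peaks in these genes in every setting, and recurrence is a share of peaks. No result could therefore reverse, by construction. For the number of peaks in the 7 genes, 49 of 63 alternatives left a difference above 0 and 14 came to a difference of 0. Leaving out a normoxia replicate, or taking replicate blocks, could not change these differences, by construction, and such settings are among the 49. Among the 35 alternatives that leave out no library, 24 stayed above 0 and 11 came to 0. Fewer peaks are listed in the shorter settings by construction; the cause of the other changes was not tested. Taking the replicate number as a replicate block left the difference of 5.5 as it was, by construction, and the smallest paired exact p was 0.5. The replicates' deviations had a correlation of -0.0978 over 3226 genes, and the numbers were not taken as pairs. With no normoxia peak in 69.2% of these genes, that value cannot show whether libraries of the same number belong together. Unknown depth and 2 libraries a condition limit every comparison.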
